A study of Mus musculus with 12 samples.

Results

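The growth hormone axis was followed in the arcuate nucleus through 8 genes, which were chosen by name. They are the peptide genes Ghrh, Sst and Gal, the receptor genes Ghr, Ghsr, Sstr1 and Sstr2, and the growth factor gene Igf1. All 8 were present among the 16640 genes of the expression table and all 8 were among the 15801 genes tested. Bulk RNA-seq had been performed on arcuate tissue microdissected from female mice aged 27 weeks, and 12 libraries were available. Control females carried Esr1fl/fl, a loxP-flanked gene for oestrogen receptor alpha, without Cre. Mutant females carried the same Esr1fl/fl alleles plus Nkx2-1-Cre, so every group shared the floxed allele and differed by Cre. Nkx2-1-Cre acts in cells with a history of Nkx2-1 expression, which reach beyond the arcuate nucleus, and the deletion is therefore not confined to one neuron type. The mice had a CD-1;129P2 mixed background. Part of each genotype received standard chow, and part received a high-fat diet, here HFD, during the last 17 weeks. There were 3 libraries of control chow, 4 of mutant chow, 2 of control HFD and 3 of mutant HFD. The labels do not state whether the libraries of a group came from separate animals, so the p-values measure only the spread between these libraries, which may be technical.

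Growth hormone is released in pulses by the pituitary under hypothalamic control. GHRH from arcuate neurons drives its release, and somatostatin, encoded by Sst, restrains it through the receptors encoded by Sstr1, Sstr2 and their relatives. Ghrelin from the stomach acts on the receptor encoded by Ghsr, which arcuate neurons carry. Circulating growth hormone feeds back through its receptor, encoded by Ghr, and the JAK2 and STAT5 proteins, and it induces IGF-1, the product of Igf1, mainly in liver. Galanin, encoded by Gal, is present in part of the GHRH neurons. In the brain IGF-1 is made by neurons, microglia and cells of blood vessels.

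Sequence is shown first for the gene pair of the axis in which a textbook regulatory element could be read from the promoter, because both a ligand and its receptor carried it. The cyclic AMP response element (CRE), the 8 letters TGACGTCA searched on both strands, is the site through which cyclic AMP is known to act on Sst. RefSeq promoter windows on GRCm38.p6, each running from 250 bases before to 50 bases after a start site, were present for 7 of the 8 genes in 9 windows. The element was present in 2 of these 9 windows and in 1.79% of all 32851 windows. The 30 bases around each match are given 5′ to 3′ on the gene's own strand, with the element in capitals.
Sst, chr16:23890874-23890903, minus strand: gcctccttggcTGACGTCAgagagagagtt
Sstr2, chr11:113619258-113619287, plus strand: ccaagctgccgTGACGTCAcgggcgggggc
In Sst the element lay 48 to 41 bases before the RefSeq start site, and in Sstr2 it lay 58 to 51 bases before. GENCODE M21 starts Sst further upstream, at 23890958, so there the same bases fall within its first exon. The palindromic oestrogen response element (ERE), the letters GGTCA and TGACC with NNN between them, was present in 0 of the 9 windows and in 0.07001% of all windows. The STAT site TTCNNNGAA (GAS) was likewise present in 0 of 9, against 8.298% of all windows. These are matches of letters in short windows and say nothing about binding in this tissue.

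The values are abundance signals that the authors computed per gene, scaled for gene length and close in scale to the unit TPM, so levels of different genes can be set side by side per length. Totals over all genes ran from 922172 to 1254999 per library. Read depth is unknown and no counting interval is given. Esr1 was read first as a check of the labels. Its signal was 17.8, 7.29 and 19.8 in control chow and 6.05, 3.15, 1.93 and 1.65 in mutant chow, and it was 15.3 and 22.4 in control HFD. The 3 libraries labelled mutant HFD gave 10.7, 16.6 and 11.9, above every mutant chow library and within the range of control chow. Control chow 2, at 7.29, lay below all 3 of them. Whether the deletion was present in these 3 libraries was not tested. They are therefore named by their label throughout, and every direction that rests on them has this limit. Nkx2-1 itself was present in every library, from 45.6 to 82.7.
Libraries 1 of control HFD, 2 of control chow and 2 and 3 of mutant chow stood apart. Control HFD 1 held the choroid plexus marker Ttr at 2112, against at most 19.2 elsewhere, and the thalamic marker Tcf7l2 at 74.7, against 12.3 to 25.0. It also had the lowest summed level of the 8 arcuate neuron markers, 2045 against 3477 to 7902 in the other libraries. Control chow 2 had the highest sum over the 7 pituitary markers present, 6032 against 126 to 2101. Cga made up 4802 of this sum and Tshb 655, and Lhb, Fshb and Pitx1 were also at their highest there. Prl was not, and Tbx19 was at its lowest of all libraries, 2.59. Mutant chow 3 had 1768 genes listed at 0, the most of any library. Mutant chow 2 had the highest level of Avp, which marks the paraventricular and supraoptic nuclei, at 3051, and of Hcrt, which marks the lateral hypothalamus, at 75.9 against at most 12.8 elsewhere. The 5 paraventricular markers summed to 174 to 1191 in control chow, 237 to 4823 in mutant chow, 363 to 592 in control HFD and 1419 to 3691 in the libraries labelled mutant HFD. Oxt and Avp made up most of this sum. Sim1 was listed at 0 in 5 of 12 libraries. Crh reached at most 3.75, and its mean was 1.91 in control HFD and 0.920 in the libraries labelled mutant HFD. The HFD groups did not overlap in the sum, where 15.7% of all genes did not overlap. The part of dissection in the differences that follow was not tested.

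By mean level over the 12 libraries the order was Sst, Gal, Ghrh, Sstr1, Ghr, Sstr2, Ghsr and Igf1. The peptides stood far above the receptors: Sst averaged 3360, Gal 424 and Ghrh 233. The next gene, Sstr1, averaged 29.8, followed by Ghr at 24.6, Sstr2 at 16.7, Ghsr at 7.97 and Igf1 at 3.35. Sst was above Gal in 12 of 12 libraries and their ranges did not overlap. Ghrh was likewise above Sstr1 throughout, without overlap. All other neighbours in the order overlapped across libraries. Sstr1 was above Ghr in 10 of 12 libraries and Ghr above Sstr2 in 11 of 12, whereas Gal was above Ghrh in 12 of 12.
From library to library the closest pairs within the axis were peptides. Pearson's r of log2 values over the 12 libraries was 0.73 between Ghrh and Gal and 0.66 between Sst and Gal, followed by 0.46 between Ghrh and Ghsr. It was 0.37 between Ghrh and Sst. The libraries share dissection and scaling, so these values describe the set and carry no p.

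**Figure D1:**
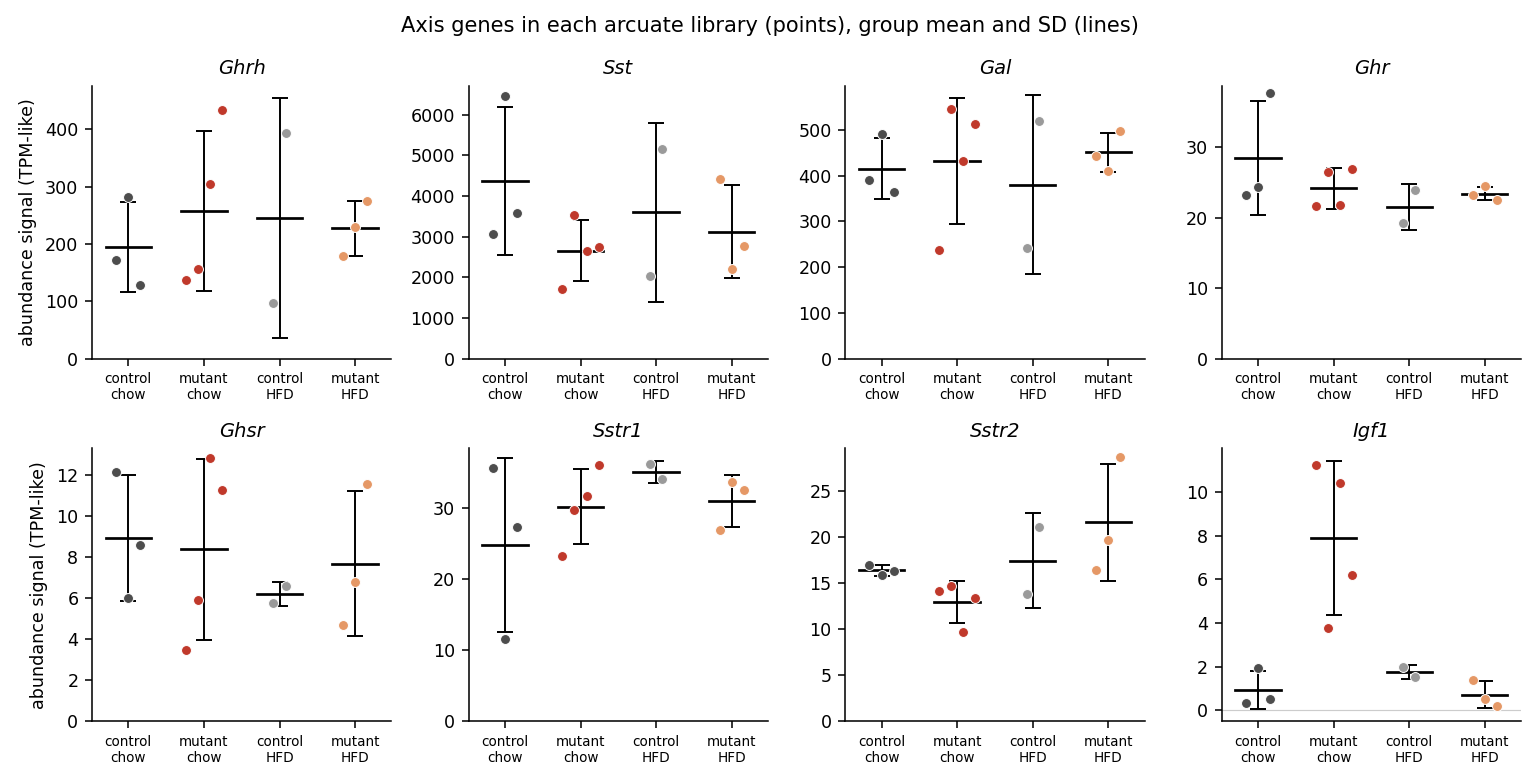
Abundance signal (TPM-like, linear axes) of each axis gene in each of the 12 libraries (points) by group, with group mean and SD (lines). Igf1 runs from 3.79 to 11.2 in mutant chow and from 0.225 to 1.99 in all other libraries. In the 4 pairwise comparisons the groups overlap for the other 7 genes, except Sstr2 on chow and by diet in mutants and Sstr1 on HFD.

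Across the 4 pairwise comparisons and the interaction, 0 of the 8 genes passed an adjusted p of 0.05 in limma. At an unadjusted p under 0.05, 1 of 8 was called by genotype on chow, 0 by genotype on HFD, 0 by diet in controls, 2 by diet in mutants and 1 by the interaction. Over all 15801 genes the adjusted threshold called 0.019% by genotype on chow and 0.00633% by genotype on HFD. By diet it called 0% in controls and 0.019% in mutants, and it called 0% by the interaction. The unadjusted threshold called 4.34% of all genes by genotype on chow and 2.21% on HFD, 3.54% by diet in controls and 5.37% in mutants, and 3.44% by the interaction. Groups that did not overlap were seen for 2 of 8 axis genes on chow and 2 of 8 on HFD. They were seen for 0 of 8 by diet in controls and 2 of 8 by diet in mutants. The shares over all genes were 4.51%, 15.7%, 14.1% and 7.99% in that order. The median log2 fold change of the 8 genes was -0.09 on chow, where that of all genes was 0.01, and it was 0.0046 for diet in mutants, where that of all genes was -0.02. The comparisons share libraries, mutant chow entering both the genotype comparison on chow and the diet comparison in mutants.

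**Figure D2:**
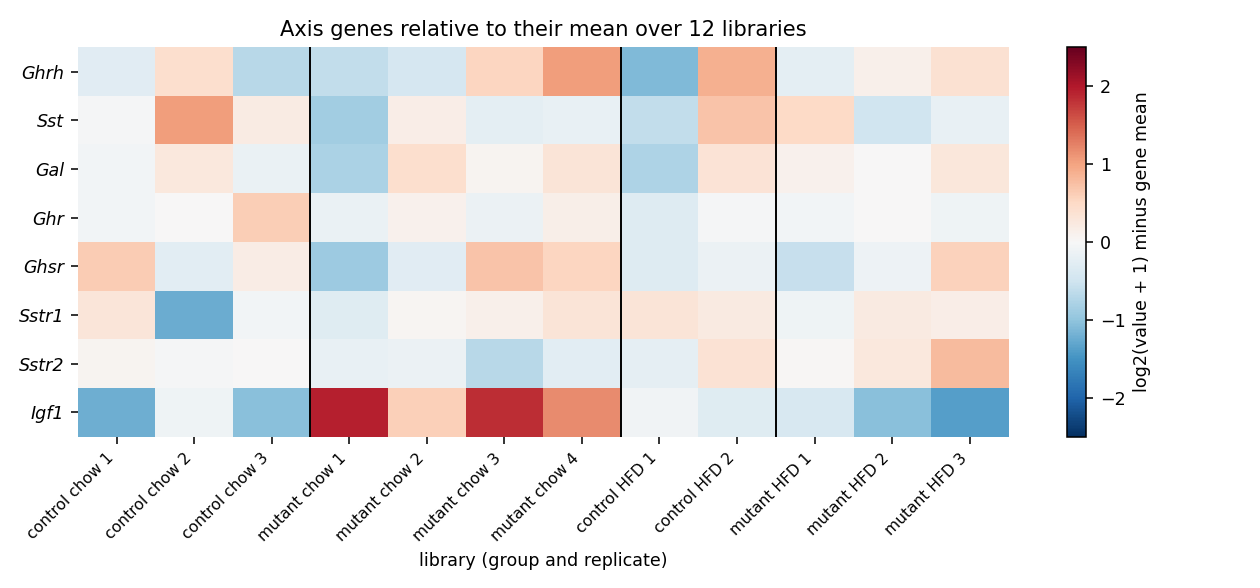
Each axis gene (rows) in each library (columns, ordered by group), as log2(value + 1) minus the gene's mean over 12 libraries. Igf1 is above its mean in all 4 mutant chow libraries and below it in the other 8, and Ghrh, Sst and Gal are all below their means in control HFD 1 and above them in control HFD 2.

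Ghrh, the releasing hormone gene on chromosome 2 (157329497-157347506, minus strand), was abundant throughout. Control chow gave 173, 282 and 129 and mutant chow 137, 157, 305 and 434. The highest value belonged to mutant chow, but 2 of its 4 libraries lay among the controls. Control HFD gave 98.0 and 394, the lowest value of the series beside one of the highest, and the libraries labelled mutant HFD gave 179, 229.5 and 275. Group means were 195 ± 78.5 (SD, n = 3), 258 ± 140 (SD, n = 4), 246 ± 209 (SD, n = 2) and 228 ± 47.9 (SD, n = 3). On the log2(value + 1) scale the genotype difference on chow was 0.32 ± 0.48 (SE), and its 95% interval allowed 0.604-fold to 2.58-fold. The diet difference in mutants was -0.04 ± 0.48, with an interval from 0.470-fold to 2.01-fold. Any change within these intervals is compatible with these libraries, and the ends of the intervals are not limits of detection.
The 3 genes for transcription factors of GHRH neurons on the list, Gsx1, Hmx2 and Hmx3, were all measured, and 0 of 3 were called in any comparison at either threshold. Gsx1, a homeobox gene required for GHRH neurons, had a mean of 10.5 in control chow and 9.48 in mutant chow. Hmx2 had 4.18 and 5.65, and Hmx3 had 13.4 and 11.3. The genes whose log2 values followed Ghrh most closely over the 12 libraries, among 12144 genes with a mean of at least 5, were Mcat (r = 0.86), Cyp4v3 (r = 0.85) and Rcn2 (r = 0.85).

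Sst, the somatostatin gene on chromosome 16 (23889573-23890958, minus strand), was the most abundant of the 8. In control chow its signal was 3066, 6456 and 3589. In mutant chow it was 1702, 3529, 2644 and 2755. Of the 4 mutant libraries 3 lay below every control and the other lay between controls, so the groups overlapped. Mutant chow averaged 2657 ± 749 (SD, n = 4), which is 60.8% of the 4370 ± 1825 (SD, n = 3) of control chow. The log2 difference of -0.69 ± 0.39 (SE) had an unadjusted p of 0.101 and an adjusted p of 0.982 in limma, and its interval ran from 0.347-fold to 1.11-fold. The difference kept its sign in 20 of 20 alternative settings, between -0.90 and -0.37. Its highest control, control chow 2, was the library with the highest pituitary marker sum, which was mostly Cga. The part of tissue composition in this value was not tested.
On HFD, Sst was 2040 and 5161 in controls and 4413, 2209 and 2759 in the libraries labelled mutant HFD. The control pair enclosed 3 of 3 of these, and the log2 difference was -0.12 ± 0.46. Of the 4 other genes of the somatostatin list, 0 were called at either threshold in any of the comparisons. Cort, the gene for the related peptide cortistatin, was listed at 0 in 6 of 12 libraries and reached at most 3.53. Sstr3, Sstr4 and Sstr5 each reached at most 6.45, well below Sstr1 and Sstr2 on this length-scaled signal. Sst was followed most closely by Pcsk1n (r = 0.93), which encodes an inhibitor of a prohormone convertase, by Cisd3 (r = 0.92) and by 1700023F06Rik (r = 0.90).

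Set against Ghrh in the same library, Sst was 17.8, 22.9 and 27.8 times as abundant in control chow. In mutant chow the ratio was 12.5, 22.5, 8.67 and 6.34. The mean ratio was 22.8 ± 4.99 (SD, n = 3) and 12.5 ± 7.15 (SD, n = 4). Of the 4 mutant libraries 3 lay below every control and 1 among them. The ratio was 20.8 and 13.1 in control HFD and 24.6, 9.62 and 10.04 in the libraries labelled mutant HFD, with overlap.

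Gal, the galanin gene on chromosome 19 (3409915-3414544, minus strand), had group means between 380.3 and 451. It was 390.4, 492 and 365 in control chow and 237, 546, 432 and 512 in mutant chow, where the lowest and the highest value of all chow libraries both fell. Control HFD gave 242 and 519, and the libraries labelled mutant HFD gave 444, 411 and 497. The log2 genotype difference on chow was -0.0027 ± 0.30 (SE), with an interval from 0.635-fold to 1.57-fold. Its sign was not stable and turned positive under other scalings. Galp, Galr1, Galr2 and Galr3, which encode a galanin-like peptide and the galanin receptors, gave 0 adjusted calls in any comparison. Galr1, with a mean of 0.768 in control chow and 0.860 in mutant chow, was low. Galr3 had the smallest p of the list, 0.0299 unadjusted on HFD, with an adjusted p of 1 in limma and means of 1.38 and 5.16. That unadjusted call held in 16 of 19 alternative settings and was lost without control HFD 2, mutant HFD 1 or mutant HFD 2, and without control HFD 2 the log2 difference was 0.73 in place of 1.55. Gal was followed most closely by Ucp2 (r = 0.87), Tmbim4 (r = 0.83) and Acadvl (r = 0.80).

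**Figure D3:**
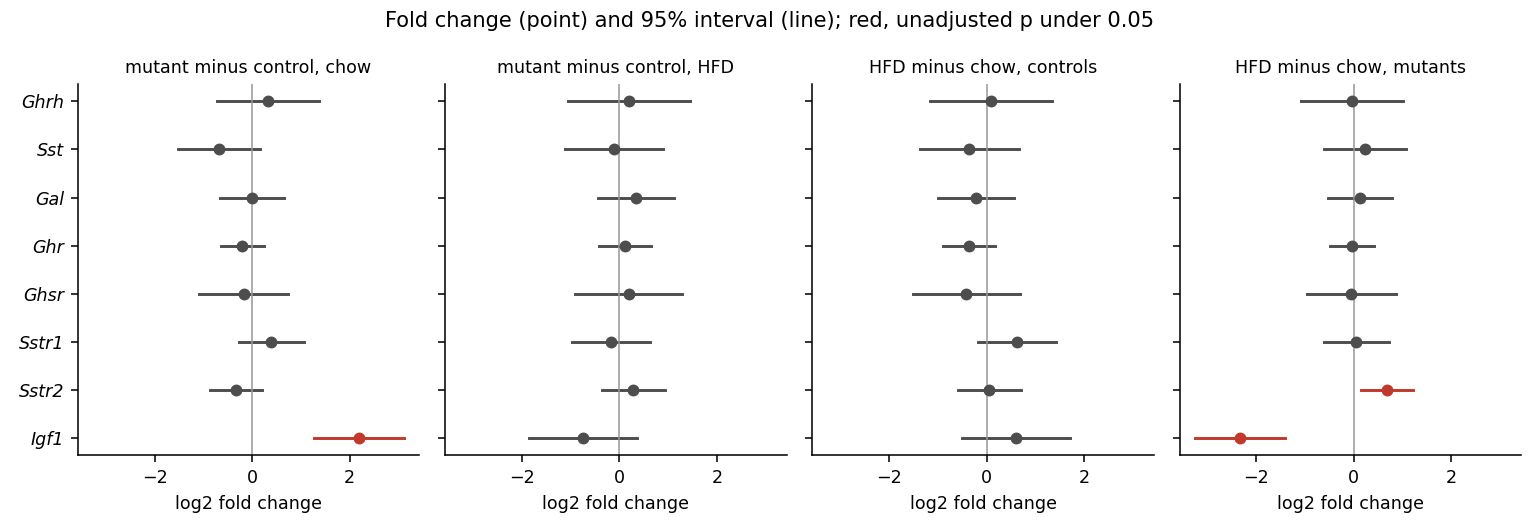
Log2 fold change on the log2(value + 1) scale (points) with its 95% interval (lines) for each axis gene in the 4 pairwise comparisons. The interval leaves out 0 for Igf1 on chow and for Igf1 and Sstr2 by diet in mutants (red, unadjusted p under 0.05), and spans 0 for all others. None passed the adjusted threshold.

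Among the receptors, Ghr on chromosome 15 (3317760-3583492, minus strand), which encodes the growth hormone receptor, varied least. It was 23.2, 24.3 and 37.7 in control chow and 21.6, 26.4, 21.7 and 26.85 in mutant chow. A single library, control chow 3, lay above all others. Control HFD gave 19.2 and 23.9 and the libraries labelled mutant HFD gave 23.2, 24.5 and 22.6. The genotype difference on chow was -0.20 ± 0.21 log2 (SE), with an interval from 0.639-fold to 1.19-fold, and without control chow 3 it was 0.02. By diet in mutants the interval ran from 0.715-fold to 1.33-fold, the narrowest of the 8 genes.
Ghsr, the ghrelin receptor gene on chromosome 3 (27371351-27378010, plus strand), was low and scattered. It was 12.1, 6.02 and 8.60 in control chow and 3.49, 5.93, 12.8 and 11.3 in mutant chow, so the mutants held both the lowest and the highest value. On HFD it was 5.78 and 6.61 in controls and 4.68, 6.76 and 11.6 in the libraries labelled mutant HFD. Its intervals reached from 0.469-fold to 1.67-fold on chow and from 0.511-fold to 1.82-fold by diet in mutants. Of the ghrelin list, 3 of 4 genes were tested and 0 passed the adjusted threshold. Ghrl, the ghrelin gene itself, had the smallest p, 0.0426 unadjusted for diet in mutants with an adjusted p of 0.916 in limma. Its values were 15.7, 2.10, 0 and 21.2 in mutant chow and 11.7, 31.7 and 60.4 in the libraries labelled mutant HFD, and the groups overlapped. Its unadjusted call held in 10 of 20 alternative settings, and without mutant chow 3 the log2 difference was 1.49 in place of 2.34.

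Sstr1, a somatostatin receptor gene on chromosome 12 (58211772-58214444, plus strand), was 35.6, 11.5 and 27.4 in control chow and 23.3, 29.7, 31.6 and 36.1 in mutant chow. Control chow 2, which had the highest Sst, had the lowest Sstr1 of all libraries. On HFD it was 36.1 and 34.0 in controls and 26.8, 33.6 and 32.45 in the libraries labelled mutant HFD. These groups did not overlap, but the log2 difference was -0.18 ± 0.37 (SE) with an interval from 0.508-fold to 1.53-fold. On chow the log2 difference was 0.39 ± 0.31, and it was -0.07 without control chow 2.

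Sstr2, on chromosome 11 (113619342-113626028, plus strand), encodes the somatostatin receptor that also mediates much of the restraint of growth hormone release in the pituitary. It was 17.0, 15.8 and 16.3 in control chow, with little spread. In mutant chow it was 14.2, 14.6, 9.66 and 13.4, so that 4 of 4 mutants lay below every control. The means were 16.4 ± 0.572 (SD, n = 3) and 12.96 ± 2.26 (SD, n = 4), or 79.1% of the control mean. The log2 difference of -0.33 ± 0.25 (SE) had an unadjusted p of 0.205 in limma, whose spread is shared by all groups, and an adjusted p of 0.982.
On HFD, Sstr2 was 13.8 and 21.1 in controls and 16.4, 19.7 and 28.7 in the libraries labelled mutant HFD. All 3 of the latter lay above the 4 mutant chow libraries. The mean was 21.6 ± 6.33 (SD, n = 3) against 12.96, or 1.67 times, and the log2 difference was 0.68 ± 0.25 (SE). Its unadjusted p was 0.0181 and its adjusted p 0.825 in limma, rank 336 of 15801 genes. The unadjusted p stayed under 0.05 in 19 of 20 alternative settings, was 0.107 without mutant HFD 3, and the adjusted p ran from 0.472 to 0.999. In controls the diet difference was 0.06 ± 0.30, and the interaction, the test of the difference between the diet effects, was 0.62 ± 0.39 with an unadjusted p of 0.134.

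Igf1 separated mutant chow from the other groups. The gene lies on chromosome 10 (87858265-87937042, plus strand) and encodes insulin-like growth factor 1. Its signal was 0.351, 1.95 and 0.538 in control chow and 11.2, 3.79, 10.4 and 6.19 in mutant chow. All 4 mutants lay above every control, with means of 7.90 ± 3.52 (SD, n = 4) and 0.946 ± 0.874 (SD, n = 3), a ratio of 8.35. Control HFD gave 1.99 and 1.55, and the libraries labelled mutant HFD gave 1.41, 0.534 and 0.225. All 3 of the latter lay below every mutant chow library and below both HFD controls.
On the log2(value + 1) scale, which understates the change of a gene this low, the genotype difference on chow was 2.19 ± 0.43 (SE). Its interval ran from 2.40-fold to 8.63-fold. The unadjusted p was 0.000225, rank 7 of 15801 genes, and the adjusted p was 0.508, so the difference did not pass the threshold over all genes. By diet in mutants the difference was -2.33 ± 0.43, with means of 0.722 ± 0.613 (SD, n = 3) against 7.90 and an unadjusted p of 0.000127. It ranked 8 of 15801 with an adjusted p of 0.251 in limma. In controls the diet difference was 0.59 ± 0.51 with an unadjusted p of 0.265, and the groups overlapped. The genotype difference on HFD was -0.74 ± 0.51 with an unadjusted p of 0.17.
The interaction was -2.93 ± 0.66 log2, with an unadjusted p of 0.000792, rank 10 of 15801, and an adjusted p of 0.999. Averaged over diets, the genotype difference was 0.72 ± 0.33 with an unadjusted p of 0.0496, a threshold that 2.85% of all genes passed, and 0.00633% passed it after adjustment. Averaged over genotypes, the diet difference was -0.87 ± 0.33 with an unadjusted p of 0.0221, where 5.29% of all genes passed and 0% did after adjustment. The first of these calls held in 6 of 18 alternative settings, with p up to 0.155, and the second in 13 of 18. Since the estimates on the 2 diets had opposite signs, these averages describe neither.
Leaving out any one library kept both the sign and the unadjusted call on chow, by diet in mutants and in the interaction. Over 19 alternative settings the log2 difference on chow lay between 1.97 and 3.13 and its adjusted p between 0.301 and 0.962. By diet in mutants it lay between -3.44 and -2.08, with an adjusted p between 0.0789 and 0.943. The level was low: Igf1 reached a value of 1 in 8 of 12 libraries, 4 of them outside mutant chow, so it would have entered the test without its highest group. Igf1 has 8 transcripts in GENCODE M21, from 510 to 7052 bases, and the signal depends on how reads were shared among them.
Among 12144 genes, those closest to Igf1 over the 12 libraries were Ccn3 (r = 0.94), Fst (r = 0.92) and Zfp212 (r = 0.89), which were looked up after the Igf1 values had been seen. Ccn3, which encodes a secreted matricellular protein, averaged 93.7 ± 38.8 (SD, n = 4) in the mutants on chow, where their controls had 9.92 ± 2.04 (SD, n = 3). On HFD its mean was 10.7 ± 5.05 (SD, n = 2) for controls and 6.95 ± 2.19 (SD, n = 3) for the mutant label. Sstr2 was the axis gene least like Igf1, with r = -0.76.

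**Figure D4:**
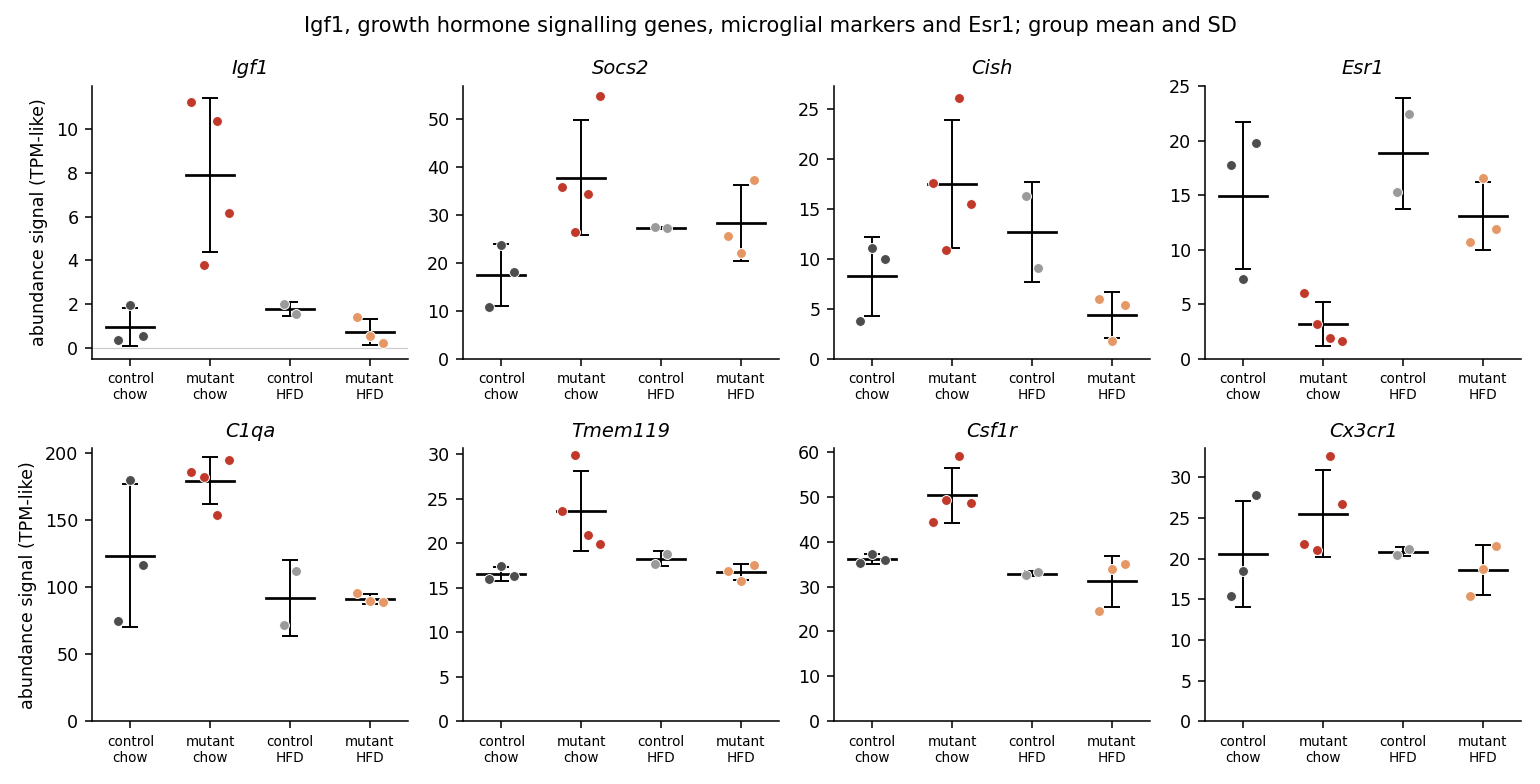
Abundance signal (TPM-like, linear axes) of Igf1, of Socs2 and Cish from the growth hormone signalling list, of Esr1, and of the microglial markers C1qa, Tmem119, Csf1r and Cx3cr1, in each library (points) with group mean and SD (lines). Igf1, Tmem119 and Csf1r are higher in every mutant chow library than in any control chow library, and Esr1 in the libraries labelled mutant HFD lies between 10.7 and 16.6, above mutant chow.

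A list of 8 genes that act downstream of the growth hormone receptor was read next, all measured. Their levels do not single out this receptor, and which signal lay behind them was not tested. On chow 0 of 8 passed the adjusted threshold and 2 of 8 had an unadjusted p under 0.05, both with higher values in mutants, with a list median of 0.22 log2. Over all genes 4.34% had such a p on chow. Socs2, a feedback inhibitor of growth hormone signalling that STAT5 induces, was 10.8, 23.6 and 18.0 in control chow and 35.8, 26.4, 34.4 and 54.8 in mutant chow, without overlap. Its mean was 2.16 times the control mean, and its log2 difference of 1.08 ± 0.30 (SE) had an unadjusted p of 0.00315 and an adjusted p of 0.905 in limma. The unadjusted call held in 20 of 20 alternative settings. Cish, another STAT5-induced inhibitor of the same family, was 3.75, 11.1 and 10.01 in control chow and 17.6, 10.9, 26.1 and 15.5 in mutant chow. These groups overlapped by 1 library, with a log2 difference of 1.05 ± 0.44, an unadjusted p of 0.0348 and an adjusted p of 0.982. The unadjusted call for Cish held in 15 of 20 alternative settings and was lost with array weights and without control chow 1, where the difference was 0.62 with a p of 0.191, or mutant chow 1, 3 or 4.
By diet in mutants, 7 of 8 genes of this list had negative values, with a median of -0.27 log2 beside -0.02 over all genes. At the unadjusted threshold 1 of 8 was called, beside 5.37% of all genes, and 0 of 8 after adjustment. Cish was 5.95, 1.72 and 5.38 in the libraries labelled mutant HFD, below every mutant chow library, with a mean at 24.8% of theirs. Its log2 difference was -1.84 ± 0.44 with an unadjusted p of 0.00121 and an adjusted p of 0.564. For Socs2 the diet difference in mutants was -0.39 ± 0.30 with an unadjusted p of 0.214, and the libraries labelled mutant HFD gave 25.7, 22.0 and 37.4. In controls its diet difference was larger and positive, 0.68 ± 0.35, with an unadjusted p of 0.0797 and an adjusted p of 0.998 in limma. Control HFD gave 27.4 and 27.2, above every control chow library, where 14.1% of all genes did not overlap. Against control HFD, which had 16.3 and 9.13, Cish in the libraries labelled mutant HFD was lower without overlap, with an unadjusted p of 0.0192 and an adjusted p of 1, a call lost without control HFD 1 or mutant HFD 2. In the interaction, Cish had -2.47 log2 with an unadjusted p of 0.00358 and Socs2 -1.07 with 0.0393, both with an adjusted p of 0.999 in limma. The unadjusted call of the interaction held in 19 of 19 alternative settings for Cish and in 11 of 19 for Socs2. Jak2, Stat5a and Stat5b, the kinase and the transducers of the receptor, had unadjusted p above 0.05 in these 5 comparisons.

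**Figure D5:**
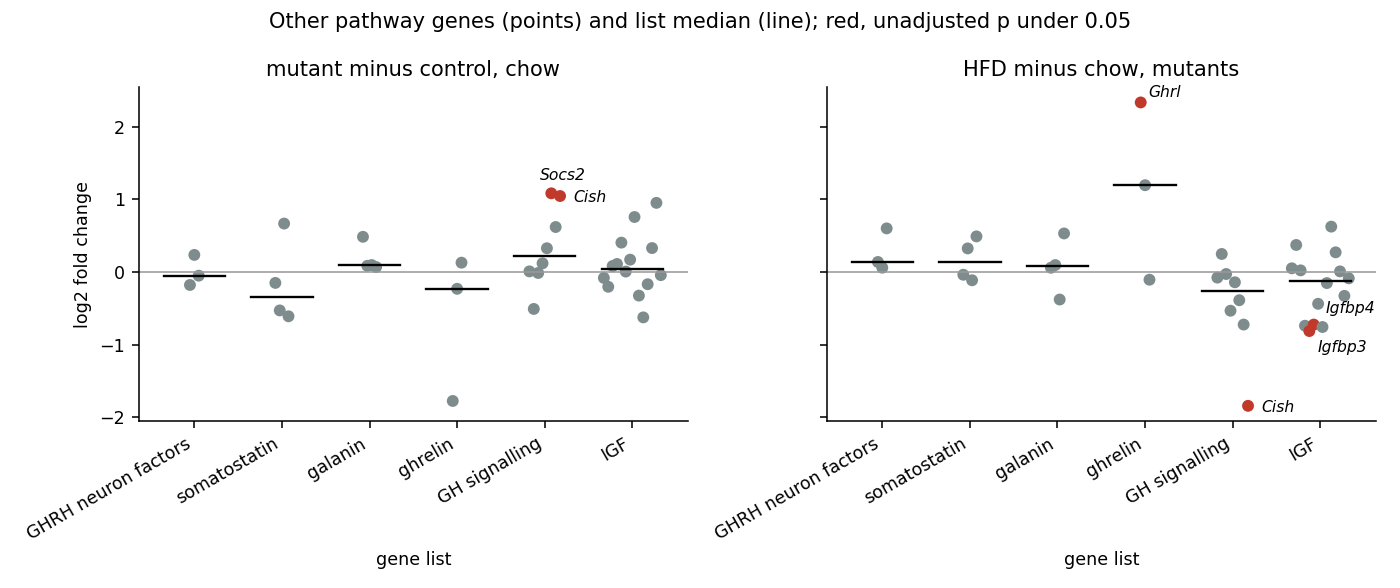
Log2 fold change of each tested gene of the other pathway lists (points) with the list median (line), for mutants against controls on chow (left) and HFD against chow in mutants (right). Socs2 and Cish stand at 1.08 and 1.05 on chow, and Cish at -1.84 by diet in mutants. Red marks an unadjusted p under 0.05, and none passed the adjusted threshold.

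Of the 17 genes of the IGF list, 15 were present and 14 were tested, and 0 passed the adjusted threshold in any comparison. On chow 8 had positive and 6 negative values and 0 had an unadjusted p under 0.05. Igf2, a growth factor related to Igf1, averaged 64.5 ± 57.1 (SD, n = 3) in the chow controls and 52.4 ± 30.1 (SD, n = 4) in the chow mutants. Igf1r, which encodes the receptor of IGF-1, averaged 8.70 ± 3.17 (SD, n = 3) and 7.18 ± 1.26 (SD, n = 4). By diet in mutants 2 of 14 were called at the unadjusted threshold, beside 5.37% of all genes. They were the binding protein genes Igfbp3 and Igfbp4, both with lower values, and Igfbp3 had the smaller p of 0.0268 in limma. Igfbp2, also a binding protein gene, was 69.4 and 31.2 in control HFD and 23.7, 14.6 and 13.5 in the libraries labelled mutant HFD, with an unadjusted p of 0.0249 and an adjusted p of 1. Its high value was in control HFD 1, without which the log2 difference was -0.86 in place of -1.43 and the p 0.235. Over all 36 tested genes of the other lists, 2 were called unadjusted on chow (5.56%), 3 on HFD (8.33%), 1 by diet in controls (2.78%), 4 by diet in mutants (11.1%) and 2 by the interaction (5.56%). The shares of all genes were 4.34%, 2.21%, 3.54%, 5.37% and 3.44% in that order. Igfbp1 and Igfals were not analysed here.

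Markers of other cell types were read beside Igf1. All 5 microglial markers had positive values for mutants on chow and 3 of 5 had an unadjusted p under 0.05, and all 5 had negative values by diet in mutants, again 3 of 5 with such a p. Over all genes such a p was reached by 4.34% on chow and by 5.37% by diet in mutants. None of the 5 markers passed the adjusted threshold. On chow the unadjusted call held in 15 of 20 alternative settings for C1qa, 14 of 20 for Tmem119 and 19 of 20 for Csf1r, and without control chow 1 the difference of C1qa was 0.30 with a p of 0.194. By diet in mutants it held in 20 of 20 for C1qa and Csf1r and in 14 of 20 for Tmem119. Their summed level was 164 to 270 in control chow, 288 to 331 in mutant chow, 175 to 211 in control HFD and 174 to 207 in the libraries labelled mutant HFD. In this sum, of which C1qa was the largest part, mutant chow thus stood above every other library, as for Igf1. Taken singly, 2 of 5 markers, Tmem119 and Csf1r, separated the chow groups, beside 4.51% of all genes. C1qa, Cx3cr1 and P2ry12 overlapped. The difference was 0.62 log2 for C1qa, 0.47 for Tmem119 and 0.46 for Csf1r on chow, and -0.96, -0.45 and -0.68 by diet in mutants. These are smaller than the 2.19 and -2.33 of Igf1. Oligodendrocyte markers moved in the same directions: 6 of 6 had positive values for mutants on chow, with a median of 0.65 log2, and 6 of 6 had negative values by diet in mutants, with a median of -0.65. Of these 6, 0 had an unadjusted p under 0.05 in either comparison. Their summed level overlapped between groups, at 1244 to 3720 in control chow, 1792 to 5673 in mutant chow, 1791 to 3595 in control HFD and 1856 to 2775 in the libraries labelled mutant HFD. The 3 markers of the ventromedial hypothalamus also had positive values for mutants on chow, with a median of 1.44 log2. Of these, 1 had an unadjusted p under 0.05 in limma, beside 4.34% of all genes. Their summed level overlapped, at 10.1 to 25.9 in control chow and 18.8 to 68.2 in mutant chow. By diet in mutants 1 had a positive and 2 a negative value, with a median of -0.05 log2. The part of microglia, of oligodendrocytes and of dissection in the Igf1 values was not tested. In bulk tissue fewer cells of a type cannot be told apart from less RNA per cell.
The 5 pan-neuronal markers gave summed levels of 843 to 1099 in control chow and 869 to 1159 in mutant chow. Arcuate neuron markers summed to 3482 to 7694 and 4153 to 7902, and to 3477 to 4243 in the libraries labelled mutant HFD. On chow 7 of 8 had positive values. Pdyn alone did not overlap there, at 49.0 to 86.1 in controls and 94.0 to 159 in mutants, as for 4.51% of all genes. By diet in mutants 8 of 8 had negative values, with a median of -0.50 log2. Of these, 2 had an unadjusted p under 0.05 in limma, beside 5.37% of all genes, and 0 passed the adjusted threshold. Their part in the Igf1 values was not tested. The pituitary is where the GHRH receptor acts, and the growth hormone gene Gh, Pou1f1 and Ghrhr were not analysed here. Pituitary markers, mostly Cga by level, summed to 560 to 6032 in control chow and 1113 to 2101 in mutant chow.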

How the data were processed

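RNA-seq reads of 12 arcuate libraries had been assigned by the authors with kallisto, in its gene mode, to mouse transcripts (mm10), and handled with sleuth, per the labels and methods. Versions are not given in the sources used here. The deposited table holds an abundance signal per gene, normalised by the authors for length and depth. No reads could be recovered from it, since at most 2.26% of a library's values were whole multiples of its smallest (tolerance 0.01), so read depth is unknown. No 2 of the 66 pairs of libraries were identical. Symbols came from GENCODE M21 (16633 of 16640 genes, 7 without).

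Groups came from the genotype and treatment labels. Values were taken as log2(value + 1), and genes with a value of at least 1 in at least 2 libraries were kept (15801). A limma model (version 3.58.1, R 4.3.3) with 1 mean per group and a trend of variance on mean covered all 12 libraries. Its 7 contrasts were the 4 pairwise comparisons, the interaction and the averages over diet and over genotype. Tests were two-sided and adjusted by the Benjamini-Hochberg method over all genes tested at 0.05. The study's own sleuth test needs resampled estimates that were not used here. The scripts were tested on simulated data.

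The 8 genes, the pathway and marker lists and the tests were chosen with earlier results of these data known. Named were the 8 genes in every library, Esr1 and Nkx2-1, and of each list the genes past the threshold, the smallest p and a few fixed genes (Gsx1, Hmx2, Hmx3, Cort, Galr1, Socs2, Igf1r, Igf2, Igfbp2). In the growth hormone signalling list, 1 gene is not reported here and was left out of the counts. The 3 genes with the highest Pearson r to Ghrh, Sst and Gal were also named. Cish, Igfbp4, Ghrl, Galp, Galr2, Galr3, Ccn3, Fst, Zfp212 and the separate microglial markers were named after their values were seen where that rule does not cover them. Alternatives were quantile normalisation, columns rescaled to a total of 1000000, no trend, no filter, array weights, a pseudocount of 0.1, a minimum mean of 5, only the groups compared, and leaving out each library. A fit with the number in the column headers as a block was added after the data were seen. Motifs were searched in RefSeq promoter windows on GRCm38.p6.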

Additional observations from a re-analysis of the deposited data

Results flagged for a closer look

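The estimated genotype difference of Igf1 had opposite signs on the 2 diets. All 4 mutant chow libraries lay above every chow control and all 3 libraries labelled mutant HFD lay below both HFD controls. Groups did not overlap for 4.51% of all genes on chow and 15.7% on HFD. The HFD values ran only from 0.225 to 1.99. The HFD difference was -0.74 log2 with an unadjusted p of 0.17 in limma, and its interval ran from 0.278-fold to 1.29-fold. The interaction, which tests the difference between the diets, was -2.926 on the log2 scale. Its unadjusted p was 0.000792 and its adjusted p 0.999 in limma, so it did not pass the threshold. The libraries labelled mutant HFD had Esr1 at 10.7 to 16.6, and its part in the difference was not tested.

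The summed level of the 3 endothelial markers was 88.2 in mutant chow 2, against 34.3 to 40.1 in the other 3 mutant chow libraries. This gap made up 0.892 of the whole range. Most of the sum was Cldn5, at 55.2 there against 12.8 to 26.5 in the rest of its group. Pecam1 was 17.35 and Flt1 15.57, the highest of their group but below control chow 3, at 19.75 and 18.05. The check needs at least 4 libraries in a group, so mutant chow alone was screened. Of the 34 measures checked in this way 1 stood out, where chance flags about 1 in 20. Mutant chow 2 also had the lowest Igf1 of its group, 3.79, and any relation to the endothelial markers was not tested.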

How the results depend on the processing

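Of 823 values of the 8 genes over 20 alternatives, 779 kept their direction and their side of the adjusted threshold, 44 changed sign and 0 newly passed. Of the other named genes, 21 pairs of gene and comparison were run, most of them chosen for an unadjusted call, and Igfbp4 was not among them. Their 416 values kept both direction and side of the adjusted threshold, which that choice favours for direction. Several unadjusted calls were lost, as given beside them. The counts of genes passing the adjusted threshold moved as follows. With only the groups compared the count was 1 for genotype on chow, 3 for genotype on HFD and 0 for diet in mutants. With a pseudocount of 0.1 it was 2 for genotype on HFD and 1 for the interaction, and with array weights it was 9 for diet in mutants. The cause was not tested. Gal on chow turned to 0.11 under quantile normalisation, 0.093 with rescaled columns and 0.12 with array weights. Quantile normalisation gave 0.11 for Sst by diet in controls, and 0.022 for Ghr and 0.072 for Ghsr by diet in mutants. Array weights gave 0.044 for Ghrh by diet in mutants.

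Leaving out each library in turn, genotype on chow gave 1 to 4 passing genes, genotype on HFD 1 to 2, diet in mutants 0 to 4, the interaction 0 to 1 and genotype averaged over diets 1 to 2. On chow the values ran from -0.14 to 0.26 for Gal, -0.32 to 0.015 for Ghr, -0.41 to 0.13 for Ghsr and -0.065 to 0.71 for Sstr1. For genotype on HFD they ran from -0.81 to 1.19 for Ghrh, -0.78 to 0.55 for Sst, -0.21 to 0.89 for Gal, -0.028 to 0.27 for Ghr, -0.11 to 0.46 for Ghsr and -0.0029 to 0.58 for Sstr2. For diet in controls they ran from -0.91 to 1.09 for Ghrh, -1.02 to 0.32 for Sst, -0.77 to 0.33 for Gal and -0.23 to 0.35 for Sstr2. For diet in mutants they ran from -0.29 to 0.26 for Ghrh, -0.059 to 0.44 for Sst, -0.14 to 0.26 for Gal, -0.087 to 0.014 for Ghr, -0.36 to 0.21 for Ghsr and -0.067 to 0.14 for Sstr1. For the interaction they ran from -1.13 to 0.87 for Ghrh, -0.10 to 1.24 for Sst and -0.21 to 0.90 for Gal. The ends for Ghrh, Sst and Gal on HFD, in controls and in the interaction came from leaving out control HFD 1 or control HFD 2, which leaves that group with 1 library assumed to vary like the others. A minimum mean of 5 removes Igf1 and gives no value for it, and the fit with only the groups compared was not run for the interaction and the averages. Read depth is unknown, so what it limits could not be judged.

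The column headers number the libraries within each group, and nothing ties these numbers to a litter, batch or day. The deviations of same-numbered libraries from their group means correlated at -0.185 to 0.308, above 0.1 in 3 of 15 pairs, and 6 of 12 libraries were closest to one of their own number. A fit with this number as a replicate block, added after the data were seen and not among the 20 alternatives, moved the passing genes to 1 by genotype on chow and to 0 by diet within mutants. It turned Ghsr to -0.054 for genotype on HFD, Ghrh to 0.26, Ghr to 0.014 and Ghsr to 0.12 for diet in mutants, and Ghrh to 0.091 in the interaction. Of the 25 unadjusted calls of named genes that were run again it kept 22 and lost those of Igfbp2 on HFD, Socs2 in the interaction and Igf1 by genotype averaged over diets. The cause was not tested.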
